A study of Mus musculus with 12 samples.

Results

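Hepatocytes labelled as lacking the receptor gene Fgfr3 were compared with control hepatocytes after liver injury by carbon tetrachloride (CCl4), using RNA-seq of isolated cells. The comparison set the 3 Alb-R3 CCl4 libraries against the 3 Alb-Cre CCl4 libraries, which are 6 of the 12 samples of the series, over the 18086 of 35709 listed genes that had a normalized count of at least 1 in at least 3 of these 6 libraries. Neither the samples nor the genes were chosen by a measured difference. The other 6 samples are 3 Alb-Cre and 3 Alb-R3 libraries from mice given olive oil alone, and they serve here as the background for the genotype difference without injury.

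All mice were males on the C57BL/6J strain, 8 to 10 weeks of age. Alb-Cre mice, the controls, carry the Cre recombinase driven by the albumin promoter, which is active in hepatocytes; Alb-R3 mice are labelled as lacking Fgfr3 in hepatocytes, and both genotypes therefore carry a Cre transgene. CCl4 diluted in olive oil was injected once into the peritoneum at a dose of 0.4 mg/g, and hepatocytes were taken 48 h later by Liberase perfusion and Percoll purification. The labels do not say that the 3 libraries of a group came from separate animals, so p-values measure the spread between these libraries, which may be technical, nor do they say that the 2 genotypes were littermates, so that the deletion and other differences between the mouse lines cannot be told apart. The values are bulk levels, in which fewer cells of a type and less RNA per cell cannot be told apart.

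FGFR3 is a receptor tyrosine kinase that binds fibroblast growth factors and signals through the adaptor FRS2 to the ERK kinases, whose feedback targets include the Sprouty and DUSP genes. FGFR4 with the co-receptor beta-Klotho (Klb) is the receptor best known for hepatocytes, where it restrains bile acid synthesis. CCl4 is turned into a radical by Cyp2e1 in hepatocytes around the central vein, these cells die, and the surviving hepatocytes enter the cell cycle and restore the liver mass.

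Fgfr3 (ENSMUSG00000054252, chromosome 5, 33721674 to 33737068, plus strand, GRCm38) was lower in the libraries labelled Alb-R3 but far from absent. Its normalized count after CCl4 was 950.9, 705.7 and 753.0 in the controls and 477.7, 372.1 and 382.3 in Alb-R3. No Alb-R3 library reached the lowest control, and Alb-R3 replicate 1 was the highest of its group. The log2 difference was -0.96 ± 0.25 (SE, n = 3 per group), which did not pass the test over all genes (limma adjusted p = 0.241, and 0.228 with a difference of -1.08 without Alb-R3 CCl4 replicate 1). With limma's library weights it passed, at -1.08 and adjusted p = 0.046. After oil the values overlapped (734.9, 887.6 and 988.1 against 523.1, 650.5 and 1109). The deleted exons are not given in the sources used here, and transcripts that lack them may still be counted.

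Normalized counts summed to 27215010 to 35543604 in the Alb-R3 CCl4 libraries and to 28838634 to 32049321 in Alb-Cre CCl4, so the genotypes overlapped. The oil libraries summed to 34699532 to 38828902, above every CCl4 library except Alb-R3 CCl4 replicate 1. Over the 12 libraries the sums equal about 28000000 to 39600000 reads. Alb-R3 CCl4 replicate 1 stood apart. Its share of mitochondrially encoded transcripts was 32.3%, where the other Alb-R3 CCl4 libraries had 7.22% and 7.85% and the Alb-Cre CCl4 libraries 6.25% to 7.98% (difference 8.71 percentage points, exact permutation test p = 0.3, where the smallest p that 3 against 3 allows is 0.1). It had the lowest weight of the 12 when limma estimated library weights (0.197), and the lowest share of albumin (Alb), 3.19% against 7.19% to 8.58% in the other 5 CCl4 libraries. Hepatocyte markers took 9.62% of its counts and 14.6% to 17.5% in the other 5, and markers of Kupffer cells and macrophages 0.0529% against 0.0112% to 0.0213%. Of the 14 hepatocyte markers and the 16 Kupffer cell and macrophage markers none was at 0 in all 6 libraries; the neutrophil markers Camp and Ngp and the cholangiocyte marker Sctr were. Values without this library are given below as values without replicate 1.

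With all libraries, 34 of 18086 genes (0.188%) differed between the genotypes after CCl4 by limma at an adjusted p under 0.05: 16 (0.0885%) were higher in Alb-R3 and 18 (0.0995%) lower. Without Alb-R3 CCl4 replicate 1, 38 genes (0.21%) passed, 15 (0.0829%) higher and 23 (0.127%) lower; 27 genes passed in both fits, 7 with the library alone and 11 without it alone. All 34 differed at least 2-fold and in all 34 the 3 Alb-R3 values lay on one side of the 3 Alb-Cre values, which was so for 12.8% of all tested genes (2322 genes). An unadjusted p under 0.05 was found for 1479 genes (8.18%), the 34 included. Of the 34, 25 are annotated as protein coding and 8 as long intergenic RNAs. The split depended on the scaling: with the libraries rescaled without mitochondrially encoded genes, which moves the median log2 difference of all genes from -0.01 to 0.13, 21 genes were higher and 13 lower, and with FPKM values and a pseudocount of 0.1, which change both the unit and the pseudocount, 32 were higher and 20 lower. Of the 34 genes, 12 passed in all 12 fits that each left out 1 library, among them Cebpe, Acpp, Lnx1, Klhl33, Nuggc, Igsf23, Nox4 and Cyp4a12b. In a fit of the 6 CCl4 libraries alone 13 genes passed, 9 of the 34 among them: Cebpe, Acpp, Lnx1, Igsf23, Akr1c18, Tagln2, Gm5678, Gm6614 and Gm30784. The other 25 calls were lost in it, with adjusted p from 0.0617 (Klhl33) to 0.357 (Gm40770). Fewer genes passed when certain libraries were dropped: 21 without the first Alb-Cre CCl4 library, 19 without either of the other 2 Alb-Cre CCl4 libraries, and 20 with Alb-R3 CCl4 replicate 3 left out.

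The same genotypes after oil, which share no library with the CCl4 comparison but enter the same fit, separated the 34 genes into 2 classes. Of them 32 had a difference of the same sign after oil, 26 did not overlap between the genotypes after oil in that direction (5.67% of all tested genes were higher without overlap after oil and 6.1% lower), and 18 passed the test after oil as well, 9 higher and 9 lower (0.105% of all tested genes were called higher after oil and 0.116% lower). The remaining 16, 7 higher and 9 lower, did not pass after oil. In total 40 genes (0.221%) passed after oil, and 38 of these had the same sign after CCl4.

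**Figure D1:**
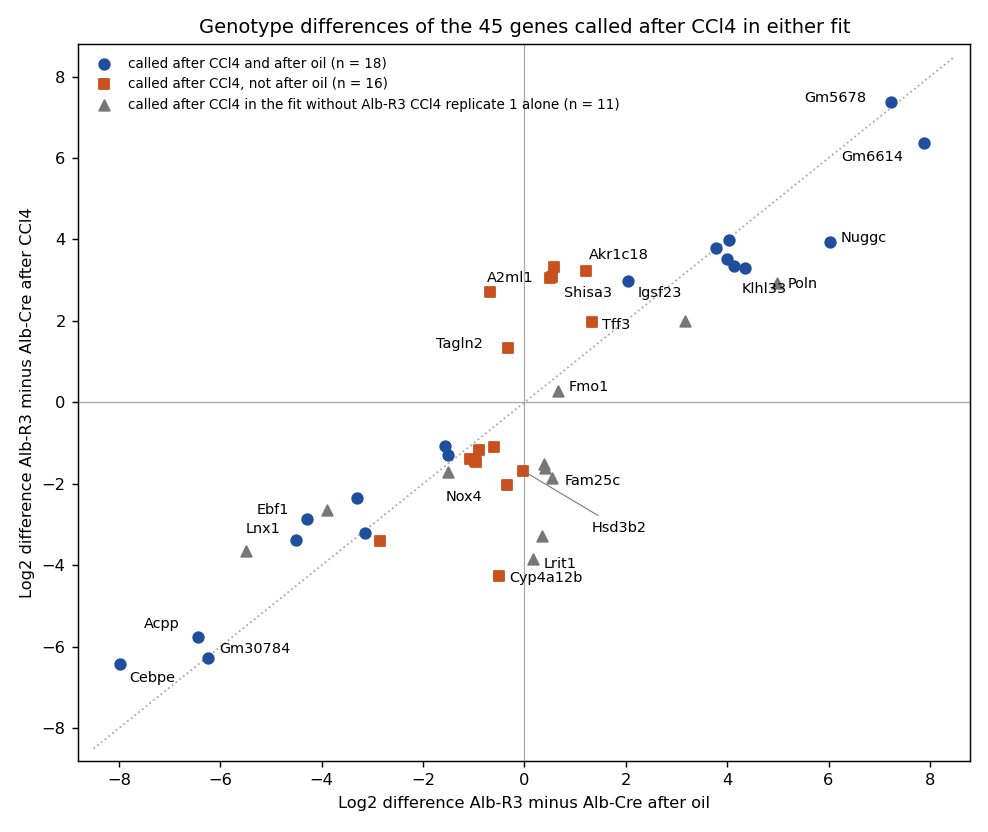
Log2 difference between Alb-R3 and Alb-Cre after oil (horizontal axis) and after CCl4 (vertical axis) for the 45 genes that passed the test after CCl4 with all libraries or without Alb-R3 CCl4 replicate 1. Circles are the 18 genes that passed after both treatments. Squares are the 16 that passed after CCl4 with all libraries and not after oil, and triangles the 11 that passed without replicate 1 alone. The dotted line marks equal differences. Distance from it does not divide circles from squares. The circle Nuggc lies off it (3.95 after CCl4, 6.02 after oil) and the square Tmem260 near it (-1.16 and -0.89).

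Among the genes lower in Alb-R3 after both treatments, Cebpe led. Cebpe (chromosome 14, 54710360 to 54712174) encodes a C/EBP transcription factor known from granulocytes. Its normalized count after CCl4 was 145.8, 110.9 and 154.6 in the controls against 3.10, 0 and 0 in Alb-R3. The transcript was thus near the detection limit in every Alb-R3 library and plainly present in every control. The log2 difference was -6.42 ± 0.51 (limma adjusted p = 0.000126), and because the Alb-R3 values are near 0 it ranged from -8.74 to -4.58 with the pseudocount and the other settings. After oil all 3 Alb-R3 libraries were listed at 0 against 232.0, 261.5 and 263.7 in Alb-Cre, at least 74.0-fold lower against a floor of 3 counts per library.

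Acpp, which encodes prostatic acid phosphatase (chromosome 9, 104288251 to 104337748), behaved likewise, with 82.64, 101.8 and 50.59 in Alb-Cre against 0, 0 and 1.77 in Alb-R3 after CCl4 (log2 difference -5.76 ± 0.70, adjusted p = 0.00483). Lnx1, a ubiquitin ligase gene on chromosome 5 (74592447 to 74702912), had 245.0, 200.2 and 157.9 against 19.60, 20.51 and 14.43, a difference of -3.39 ± 0.42. Both genes were low in all 3 Alb-R3 libraries and both passed after oil, at -6.44 and -4.51. The B-lineage transcription factor gene Ebf1 was low in the controls (12.64, 8.01 and 11.11) and lower in Alb-R3 (1.12, 0 and 0.80), with -2.87 ± 0.44. Dynlt1b, a dynein light chain gene, differed least among these genes, with 1055, 811.5 and 1141 against 461.5, 471.8 and 491.7 and a difference of -1.06 ± 0.16 (adjusted p = 0.0173). Its spread within Alb-R3 was narrow and no Alb-R3 value came near a control value. The call was lost without 1 of 4 CCl4 libraries each for Dynlt1b (Alb-Cre 1 and 3, Alb-R3 2 and 3; adjusted p 0.0577 to 0.11) and with rescaling without mitochondrially encoded genes (0.0641), and without 1 of 5 for Ebf1 (all but Alb-R3 1; 0.0531 to 0.113).

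Genes higher in Alb-R3 after both treatments included several that were close to silent in the controls. Klhl33, a Kelch-family gene on chromosome 14 (50888582 to 50897507), had 5.01, 9.52 and 4.99 in Alb-Cre against 66.31, 59.70 and 87.75 in Alb-R3, a log2 difference of 3.30 ± 0.36 (limma adjusted p = 0.00189; 4.36 after oil). Pnp2, a purine nucleoside phosphorylase gene that lies 0.0585 Mb from Klhl33, had 3.81, 3.03 and 11.88 against 63.32, 108.2 and 94.57 (3.80 ± 0.55). The 2 neighbouring genes were raised in all 3 Alb-R3 libraries, with values after oil of the same size. Nuggc, a nuclear GTPase gene of germinal centre B cells, also on chromosome 14, had 1.95, 2.29 and 0.83 against 59.84, 49.81 and 20.04 (3.95 ± 0.51). Pglyrp1, which encodes a peptidoglycan recognition protein (0.67, 1.14 and 2.49 against 28.89, 23.45 and 16.83), and Igsf23, of the immunoglobulin superfamily (13.61, 25.16 and 19.12 against 194.0, 145.8 and 132.2; 2.98 ± 0.36), completed the named genes of this class. In none of these 5 genes did the groups overlap, which held for all 34 genes and was a condition for being named. Pnp2 lost its call without Alb-Cre replicate 1 or 2 or Alb-R3 replicate 2 or 3 (limma adjusted p 0.0583 to 0.0605). Pglyrp1 lost its call without Alb-Cre replicate 1 or 2 (0.0516 and 0.0509) and with a pseudocount of 0.1 (0.064).

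The naming rule leaves out predicted and clone-named models, yet 3 of the 4 largest differences among the 34 genes were in such models, which are named here after their values were seen. Gm5678, a predicted protein-coding gene on chromosome 16 (93628097 to 93630451), was listed at 0 in all 3 Alb-Cre libraries and at 103.7, 221.6 and 194.2 in Alb-R3, at least 58.75-fold higher against a floor of 3 counts per library (fitted log2 difference 7.37 ± 0.40, which depends on the pseudocount). It was the gene with the smallest adjusted p, 2.56e-06, and after oil the controls were again at 0. Gm6614 and Gm30784, whose gap on chromosome 6 is 0.0966 Mb, moved in opposite directions: Gm6614 rose from 3.89, 2.29 and 4.16 to 317.8, 350.2 and 417.7 (6.37 ± 0.65), whereas the long intergenic RNA Gm30784 fell from 133.2, 113.2 and 177.9 to 0, 2.20 and 0.80 (-6.29 ± 0.52). Both did so after oil too (7.89 and -6.24). With a pseudocount of 0.1, Gm6614 did not pass after CCl4 (limma adjusted p = 0.0752).

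These genes were not spread evenly. Chromosome 14 held 6 of the 34, or 0.93% of its 645 tested genes against 0.188% of all: Klhl33, Pnp2, Cebpe, Nuggc, Tmem254b and Tmem260, of which the first 4 passed after oil. Counting genes that passed in either fit, it held 9. On chromosome 5, the DNA polymerase gene Poln had 1.95, 2.29 and 3.33 in the controls and 14.44, 35.89 and 32.06 in Alb-R3. The lower coordinates of Poln and Fgfr3 lie 0.2855 Mb apart, a distance that includes the length of Fgfr3. The Alb-R3 values were all above the controls, and the difference of 2.94 ± 0.53 missed the threshold with all libraries (adjusted p = 0.0536) and passed without Alb-R3 CCl4 replicate 1 (3.33, adjusted p = 0.0282); after oil it passed at 4.98.

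Several of these genes have near-identical copies between which estimated counts can be split, which makes their own values uncertain. Pnp, the copy of Pnp2, had 2947, 3765 and 3184 in the controls against 2709, 3651 and 3010 in Alb-R3, so the sum of the pair overlapped between the genotypes (2951, 3768 and 3196 against 2772, 3759 and 3105). For Dynlt1a, Dynlt1b, Dynlt1c and Dynlt1f together the sum was 1435, 1144 and 1527 in Alb-Cre against 734.7, 958.8 and 1003 in Alb-R3. For Tmem254a, Tmem254b and Tmem254c together it was 7768, 7223 and 4842 against 3164, 1755 and 2538. The summed Dynlt1 and Tmem254 genes stayed lower in all Alb-R3 libraries. Pnp2 reached at most 108.2, less than Pnp varied within either genotype. The sum of the Pnp pair therefore cannot show whether Pnp2 itself differs. These families were chosen after the values were seen.

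The 16 genes that passed after CCl4 and not after oil included genes of oxidase, P450 and steroid metabolism. Nox4 (ENSMUSG00000030562, chromosome 7, 87246096 to 87398710, plus strand) encodes an NADPH oxidase that produces hydrogen peroxide. Its normalized count after CCl4 was 656.3, 637.1 and 655.0 in the controls and 125.9, 250.5 and 128.8 in Alb-R3. The controls hardly varied, and each Alb-R3 library lay well below them. The log2 difference was -2.02 ± 0.27 (limma adjusted p = 0.00922; -1.85 and 0.0203 without Alb-R3 CCl4 replicate 1), a mean 3.86-fold lower. After oil the genotypes overlapped (1117, 1341 and 804.3 against 869.9, 1030 and 647.3; -0.35 ± 0.27). Per length, Nox4 was at a mean FPKM of 8.56 in the controls against 2.23 in Alb-R3.

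Hsd3b2 (ENSMUSG00000063730, chromosome 3, 98709255 to 98724543, minus strand), a 3-beta-hydroxysteroid dehydrogenase gene, had 2906, 2085 and 2607 in Alb-Cre against 617.4, 1000 and 784.5 in Alb-R3. No Alb-R3 library reached even the lowest control, and the 3 oil libraries of either genotype lay in the range of the CCl4 controls or above it. The difference was -1.67 ± 0.23 (limma adjusted p = 0.0093) after CCl4 and -0.03 ± 0.23 after oil. Its family member Hsd3b3 had 3198, 3290 and 2712 against 1075, 6354 and 5404 (0.12, and 0.94 without replicate 1 of Alb-R3). The sum of Hsd3b2, Hsd3b3, Hsd3b5 and Hsd3b7 overlapped between the genotypes (28060, 23710 and 22450 against 12740, 24500 and 19920). Hsd3b7 made up most of this sum. Whether counts were split between these genes was not tested. Cyp4a12b (ENSMUSG00000078597, chromosome 4, 115411624 to 115439034, plus strand), a fatty acid hydroxylase gene of the cytochrome P450 family that is higher in male liver, had 308.4, 132.4 and 689.1 against 11.56, 33.69 and 8.12. It was the largest fall of this class, -4.27 ± 0.59 (adjusted p = 0.0093; -0.51 ± 0.59 after oil). Its near-identical copy Cyp4a12a was also lower without overlap, but with -3.70 ± 0.89 it did not pass (adjusted p = 0.199; -2.95 without replicate 1 of Alb-R3), and the sum of the pair was 5061, 1577 and 8320 against 112.5, 1226 and 203.5. Nlrp12, a NOD-like receptor gene, fell by 1.45 ± 0.23 on the log2 scale (598.0, 953.7 and 851.1 to 340.5, 224.9 and 306.2). In contrast to Nox4, Hsd3b2 and Cyp4a12b, Nlrp12 was also lower without overlap after oil, at -0.95. So were the other lower genes of this class: Fam234b (-0.61), Tmem254b (-0.98), Tmem260 (-0.89), A930005H10Rik (-1.07) and Gm40770 (-2.85). Hsd3b2 lost its call without Alb-Cre CCl4 replicate 1 (adjusted p = 0.0516) or 3 (0.0544), and Nlrp12 without Alb-Cre replicate 2 or 3 or Alb-R3 replicate 2 or 3 (0.0583 to 0.116) or with rescaling without mitochondrially encoded genes (0.0521). In a fit of the 6 CCl4 libraries alone, Nox4 (adjusted p = 0.097), Hsd3b2 (0.0778), Cyp4a12b (0.169) and Nlrp12 (0.187) did not pass.

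Of the genes higher in this class, A2ml1 (ENSMUSG00000047228, chromosome 6, 128539821 to 128581608, minus strand), which encodes an alpha-2-macroglobulin-like protease inhibitor, had 108.9, 187.9 and 458.9 in the controls and 2569, 1552 and 1363 in Alb-R3. The Alb-R3 libraries after CCl4 lay within or above the range of both genotypes after oil, 851.7 to 2129, and the 3 controls after CCl4 lay below it. The log2 difference was 3.05 ± 0.42 (limma adjusted p = 0.0093) after CCl4 and 0.51 ± 0.42 after oil. Akr1c18, the gene of 20-alpha-hydroxysteroid dehydrogenase, which inactivates progesterone, had 85.56, 38.89 and 76.47 in the controls against 415.2, 606.5 and 849.8 in Alb-R3 (3.22 ± 0.53, limma adjusted p = 0.0284). All 6 oil libraries were at 5.47 or below, and there too Alb-R3 was higher without overlap, at 1.21. None of the other 7 members of the Akr1c family measured (Akr1c6, Akr1c12, Akr1c13, Akr1c14, Akr1c19, Akr1c20 and Akr1c21) passed. A2ml1 lost its call without Alb-Cre CCl4 replicate 2 (limma adjusted p = 0.0509) and in the 6 CCl4 libraries alone (0.169), and Akr1c18 without any 1 CCl4 library except Alb-R3 replicate 1 (0.0675 to 0.152). Akr1c18 also lost its call with a pseudocount of 0.1 (0.435), without the filter (0.0539) and with a replicate block (0.0523).

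Tagln2 (ENSMUSG00000026547, chromosome 1, 172500047 to 172507380, plus strand), the gene of the actin-binding protein transgelin-2, had 656.0, 576.7 and 588.1 in Alb-Cre against 1675, 1356 and 1590 in Alb-R3 after CCl4. In oil libraries it was low in both genotypes, from 94.33 to 191.7. The difference was 1.34 ± 0.23 (limma adjusted p = 0.0376), a mean 2.54-fold higher, and without Alb-R3 CCl4 replicate 1 it was 1.28 with an adjusted p of 0.093. The Tagln2 call was lost in 10 of the 12 fits that each left out 1 library, among them each CCl4 library (up to 0.17), and held in the 6 CCl4 libraries alone (0.0413). Tff3, a trefoil peptide gene of mucosal repair, had 82.64, 84.64 and 74.80 against 304.3, 245.4 and 442.4 (1.98 ± 0.29, adjusted p = 0.0124). Tff3 also lay higher without overlap after oil, at 1.33, and lost its call without any 1 of the Alb-Cre CCl4 libraries or without Alb-R3 CCl4 replicate 3 (adjusted p 0.0514 to 0.0824). Shisa3, a gene whose product restrains FGF and Wnt receptor maturation, was near the detection limit in the controls (0, 0 and 0.83) and at 7.01, 11.75 and 9.63 in Alb-R3 (3.07 ± 0.53, adjusted p = 0.0414). Shisa3 lost its call in 10 of the 12 fits that each left out 1 library, among them each CCl4 library (adjusted p 0.0618 without Alb-R3 replicate 1, up to 0.161), with a pseudocount of 0.1 (0.214) and in the 6 CCl4 libraries alone (0.21), where Tff3 did not pass either (0.0778).

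The start regions of 4 genes of this class are shown: Nox4, Hsd3b2, A2ml1 and Tagln2, which passed after CCl4, overlapped between the genotypes after oil and were well above the detection limit in all 6 CCl4 libraries. Of the other named genes that overlapped after oil, Shisa3, near the detection limit, and Cyp4a12b are not shown. Each is RefSeq's sequence on GRCm38.p6 from 250 bases before to 50 bases after the start of RefSeq's gene, 5′ to 3′ on the gene's strand, at chr7.0:87246399-87246698 (plus), chr3.0:98724494-98724793 (minus), chr6.0:128581557-128581856 (minus) and chr1.0:172499996-172500295 (plus). For Nox4 and Tagln2 the RefSeq start lies downstream of the GENCODE gene start printed above, so that the Nox4 window lies within the GENCODE gene and the Tagln2 window mostly within it. Capitals mark matches, on either strand, to the AP-1 motif TGANTCA, the STAT motif TTCNNNGAA, the TATA box TATAAA or the CCAAT box CCAAT.
Nox4: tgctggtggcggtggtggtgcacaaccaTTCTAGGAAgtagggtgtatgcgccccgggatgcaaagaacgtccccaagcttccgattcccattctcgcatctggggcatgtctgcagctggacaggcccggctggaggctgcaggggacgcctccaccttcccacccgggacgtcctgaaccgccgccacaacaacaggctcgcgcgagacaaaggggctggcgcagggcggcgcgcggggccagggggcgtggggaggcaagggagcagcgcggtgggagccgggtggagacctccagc
Hsd3b2: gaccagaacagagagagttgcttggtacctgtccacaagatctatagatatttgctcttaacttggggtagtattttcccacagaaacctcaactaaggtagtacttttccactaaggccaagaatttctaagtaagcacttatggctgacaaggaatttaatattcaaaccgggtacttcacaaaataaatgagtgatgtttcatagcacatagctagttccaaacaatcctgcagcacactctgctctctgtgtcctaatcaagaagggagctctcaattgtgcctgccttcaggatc
A2ml1: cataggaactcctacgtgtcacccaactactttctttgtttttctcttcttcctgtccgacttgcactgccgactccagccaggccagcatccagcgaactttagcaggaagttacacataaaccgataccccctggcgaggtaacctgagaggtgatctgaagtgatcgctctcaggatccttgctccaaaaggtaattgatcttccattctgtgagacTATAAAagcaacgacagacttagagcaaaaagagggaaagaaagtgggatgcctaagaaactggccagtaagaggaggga
Tagln2: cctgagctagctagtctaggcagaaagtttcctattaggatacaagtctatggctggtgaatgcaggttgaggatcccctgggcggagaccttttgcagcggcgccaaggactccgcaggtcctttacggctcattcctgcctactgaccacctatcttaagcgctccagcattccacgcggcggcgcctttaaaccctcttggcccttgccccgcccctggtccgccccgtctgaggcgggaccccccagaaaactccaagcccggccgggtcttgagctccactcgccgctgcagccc
Nox4 held 1 STAT match, TTCTAGGAA, whose first base lies at position -222 from the RefSeq start; 8.3% of the 32851 promoters of the same 300 bases hold one. A2ml1 held the TATA box letters at -30 from its RefSeq start, found in 13.6% of promoters. The AP-1 motif, found in 7.81%, and the CCAAT box, found in 37.4%, had no match in these 4 windows, and Hsd3b2 and Tagln2 held no match to any of the 4 motifs. The match is a description of letters and not of a bound site.

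**Figure D2:**
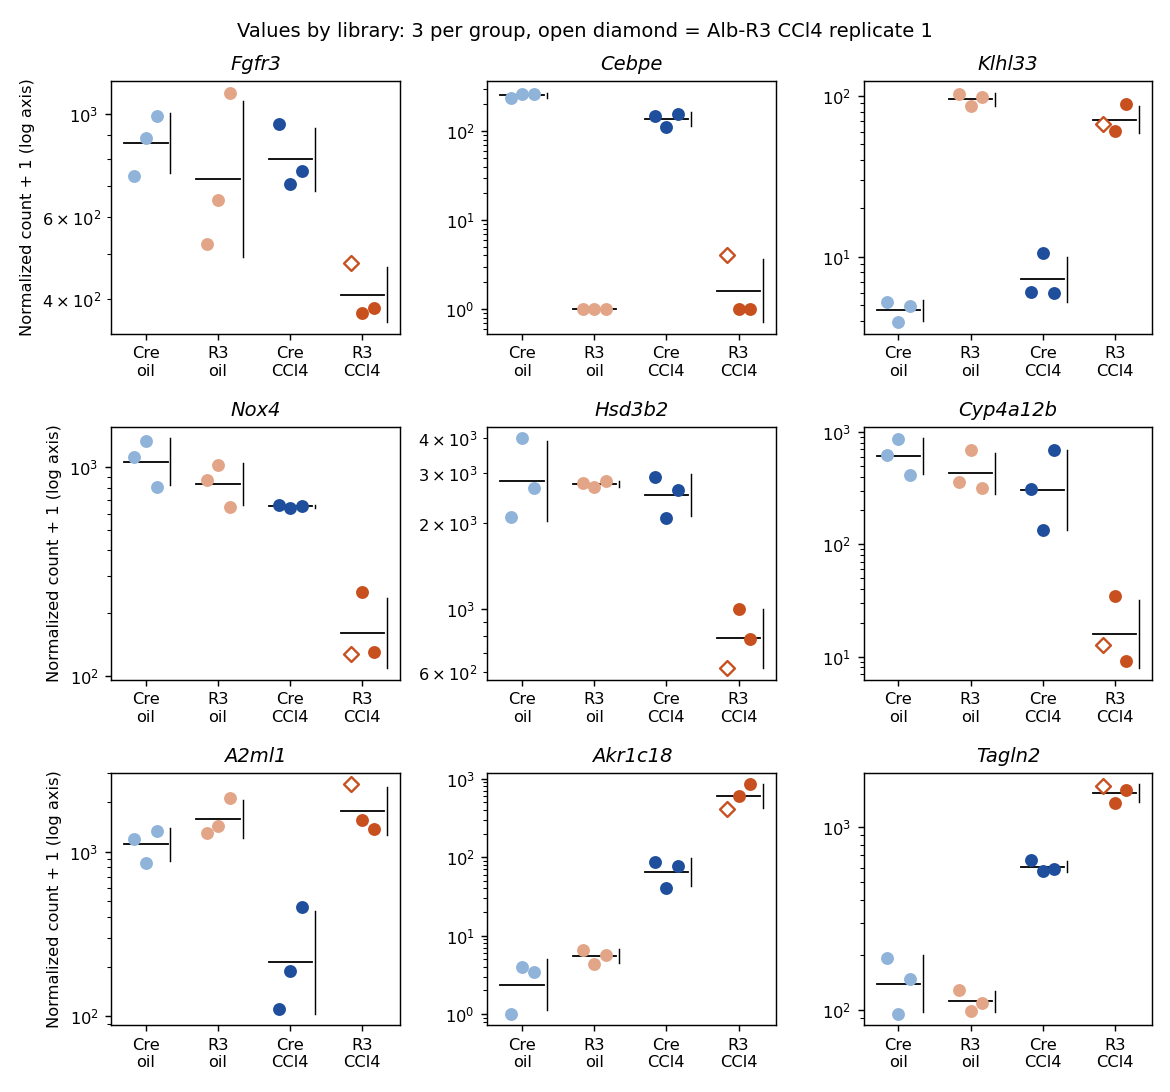
Normalized count + 1 on a log axis for 9 genes in each of the 12 libraries (points), with the mean of the log2 values as a horizontal bar and ± 1 SD of the log2 values as a vertical line (n = 3 per group). The open diamond is Alb-R3 CCl4 replicate 1. Cebpe and Klhl33 separate the genotypes after both treatments, while Nox4, Hsd3b2, Cyp4a12b and A2ml1 overlap after oil and separate after CCl4.

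Passing after CCl4 and not after oil does not show that the difference itself changed. The test of that change, the interaction of genotype and treatment, called 0 of 18086 genes (0%) by limma (smallest adjusted p 0.257; 1398 genes had an unadjusted p under 0.05). Among the genes named, the interaction was -1.67 ± 0.38 for Nox4, -1.64 ± 0.33 for Hsd3b2, -3.76 ± 0.83 for Cyp4a12b, 2.54 ± 0.60 for A2ml1 and 1.66 ± 0.32 for Tagln2, each with an adjusted p of 0.37. Among genes that passed after both treatments it was -0.05 ± 0.74 for Gm30784, 0.14 ± 0.56 for Gm5678 and -2.08 ± 0.72 for Nuggc. Without Alb-R3 CCl4 replicate 1 the interaction called 2 genes, Lrit1 (-5.48, adjusted p = 0.012) and Fam25c (-4.06, adjusted p = 0.012).

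Leaving out Alb-R3 CCl4 replicate 1 brought in 11 genes. Lrit1 and Lrit2, neighbouring genes of leucine-rich repeat membrane proteins on chromosome 14, were at 225.6, 140.5 and 179.5 (Lrit1) and at 62.22, 60.62 and 60.67 (Lrit2) in Alb-Cre. In Alb-R3 they were at 96.98, 1.47 and 7.21 and at 39.20, 0 and 5.61. Replicate 1 was in both genes the Alb-R3 library nearest the controls, though still below them. Without it the log2 difference was -5.32 (limma adjusted p = 0.000263) for Lrit1 and -4.60 (0.00775) for Lrit2, and with it -3.84 (0.200) and -3.27 (0.308). After oil the genotypes overlapped for both (0.16 and 0.34). Fam25c (710.7, 2125 and 912.6 against 3123, 92.29 and 99.38) and Bcl7c, of a chromatin remodelling complex (1030, 2126 and 956.7 against 1474, 280.2 and 219.1), had their highest or a high value in replicate 1 and their lowest values in the other Alb-R3 libraries. Fmo1, a flavin monooxygenase gene, did the reverse, at 5319, 3969 and 4583 in the controls and 2038, 8996 and 9295 in Alb-R3 (0.99, adjusted p = 0.0213 without replicate 1). For these 3 genes the direction or the call therefore rested on whether replicate 1 was counted. The 7 genes that passed only with replicate 1 were Tagln2, Tmem260, Shisa3, Gm27042, Gm36325, Gm36251 and G630016G05Rik.

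The lists below were compared by counts of members and by the median log2 difference, whose value over all tested genes was -0.01 (0.005 without Alb-R3 CCl4 replicate 1). Most of the listed genes known to be higher in male than female mouse liver lay lower in Alb-R3 after CCl4. Of 21 tested members 2 fell past the threshold, Cyp4a12b and Hsd3b2 (0.0995% of all tested genes were called lower). Without overlap 9 were lower (6.14% of all tested genes were), and 18 had a negative difference. The median was -1.64, -1.12 without replicate 1 and 0.14 after oil. Cyp2d9, a steroid hydroxylase gene, had 33730, 26200 and 36610 in the controls against 7861, 18580 and 8356 in Alb-R3 (-1.58 ± 0.31, limma adjusted p = 0.0827). Cyp7b1, an oxysterol hydroxylase of bile acid synthesis, had 2311, 953.9 and 1609 against 156.8, 802.8 and 359.0 (-2.09 ± 0.47, adjusted p = 0.162; -1.50 without replicate 1), and Susd4, a complement regulator gene, 212.9, 69.77 and 89.76 against 10.32, 43.95 and 26.45. In Cyp2d9, Cyp7b1 and Susd4 alike, Alb-R3 replicate 2 stood highest of its group, nearest the controls. Complement component gene C6 had 2679, 2684 and 2444 against 743.8, 2171 and 289.3 (-1.74 ± 0.54), again with replicate 2 highest. Cyp4a12a, Cyp2d9, Cyp7b1 and C6 each passed in 1 of 23 alternatives, the fit without Alb-R3 CCl4 replicate 2. That library was the Alb-R3 library nearest the controls in these genes, so their difference is larger without it by construction. Over the 23 alternatives the adjusted p ran from 0.0483 to 0.616 for Cyp4a12a, from 0.0122 to 0.53 for Cyp2d9, from 0.026 to 0.679 for Cyp7b1 and from 0.0376 to 0.749 for C6. A separate list of 22 major urinary protein genes, which shares Mup1 with the male-biased list, depended on replicate 1. Its median was -0.55, 0.17 without that library and 0.40 after oil, and 8 of the 22 had a positive difference with all libraries.

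Genes higher in female liver lay higher in Alb-R3. None of 24 tested members passed, 6 were higher without overlap (6.7% of all tested genes were) and 12 without replicate 1 (13.1% of all tested genes were), and 21 had a positive difference; the median was 1.41, 1.87 without replicate 1 and 0.19 after oil. Cyp2a4, a steroid 15-alpha-hydroxylase gene, had 88.0, 61.28 and 1592 in Alb-Cre against 7343, 11780 and 24060 in Alb-R3 (5.95 ± 1.09, limma adjusted p = 0.0543; 4.27 after oil). Its near-identical copy Cyp2a5 had 926.1, 63.39 and 4692 against 3304, 9061 and 19670, so that the sum of the pair was 1014, 124.7 and 6284 against 10650, 20840 and 43730. The sum stayed without overlap. Cyp2a4 passed in 6 of 23 alternatives, with an adjusted p from 0.0048 (without Alb-Cre CCl4 replicate 3, its highest control) to 0.273. Cyp3a44 (6.64, 16.21 and 26.76 against 43.47, 171.8 and 98.0; 2.57 ± 0.73), A1bg (1.95, 14.87 and 8.31 against 83.56, 33.69 and 38.47; 2.69 ± 0.62) and Prom1, also a progenitor marker (20.43, 28.59 and 68.15 against 145.5, 116.5 and 480.1; 2.52 ± 0.72), did not pass. All mice were male by the labels.

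**Figure D3:**
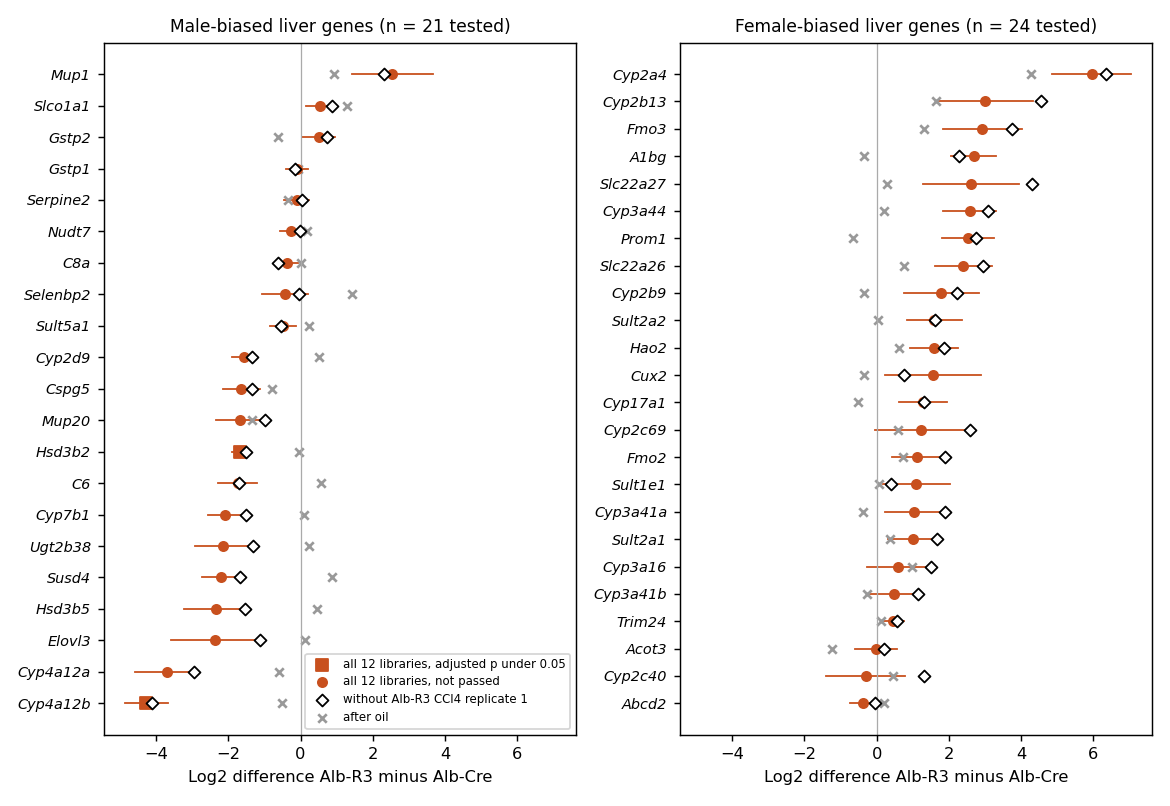
Log2 difference between Alb-R3 and Alb-Cre for each tested gene of the male-biased (left) and female-biased (right) lists after CCl4 with all libraries (squares passed the test, circles did not; lines are ± 1 SE), without Alb-R3 CCl4 replicate 1 (open diamonds) and after oil (crosses). Of the male-biased genes 18 of 21 lie below 0 and of the female-biased genes 21 of 24 above 0 after CCl4, and the median after oil is 0.14 and 0.19.

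In the FGF pathway no gene passed. Of the 10 receptors, co-receptors and adaptors, Fgfr3 was the 1 gene whose groups did not overlap with all libraries. Of all tested genes 12.8% did not overlap, counting both directions. The median of the 10 was -0.28. Fgfr4, the main hepatocyte FGF receptor, had 1196, 2208 and 1194 against 1845, 1195 and 800.6 (-0.28 ± 0.29, and -0.58 without replicate 1), and its co-receptor Klb 486.1, 366.0 and 614.2 against 101.1, 498.8 and 725.3 (-0.52 ± 0.57, and 0.33 without replicate 1). Fgfr1 (-0.93 ± 0.47) and Fgfr2 (-0.28 ± 0.27) overlapped as well. Per length after CCl4, Fgfr4 was the highest of the 4 receptors in Alb-Cre (mean FPKM 34.7), followed by Fgfr3 (12.3), Fgfr2 (9.51) and Fgfr1 (1.25); in Alb-R3 the means were 28.1 for Fgfr4, 6.14 for Fgfr3, 7.24 for Fgfr2 and 0.58 for Fgfr1. Among 16 feedback targets of FGF and ERK signalling, 12 had a positive difference and 4 a negative one. Of the 16, 5 were higher without overlap (6.7% of all tested genes were). The median of the 16 was 0.56 (0.65 without replicate 1, and -0.16 after oil). With quantile normalization this median was 0.39, and 0.31 with FPKM and a pseudocount of 0.1. Dusp6, the ERK phosphatase gene, had 1373, 1605 and 1169 against 1762, 2452 and 2926 (0.76 ± 0.22, limma adjusted p = 0.327). Each Alb-R3 library was above each control for Dusp6, which was chosen after the values were seen. Dusp6 passed in 1 of 23 alternatives, the fit with limma's library weights (0.94, limma adjusted p = 0.0212).

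Immediate-early genes, which respond to stress and growth signals within minutes, lay higher in Alb-R3 in 18 of 19 cases without any passing; 8 were higher without overlap (6.7% of all tested genes were), with a median of 0.95 (0.85 without replicate 1; 0.47 after oil). Atf3 had 147.8, 135.0 and 165.4 in the controls and 853.2, 1119 and 333.4 in Alb-R3 (2.19 ± 0.48, limma adjusted p = 0.144). Fos had 416.1, 530.7 and 96.41 against 2306, 583.8 and 956.1 (1.97 ± 0.68), and Ier3 17.50, 25.16 and 29.92 against 125.9, 68.85 and 52.09 (1.66 ± 0.49). In these 3 genes every Alb-R3 library exceeded every control. The list of keratins, annexins, S100 proteins and tubulins, parts of the cytoskeleton and its membrane links, had 1 of 29 members past the threshold, Tagln2 (0.0885% of all tested genes were called higher), and 11 higher without overlap (6.7% were), with a median of 0.49 (0.58 without replicate 1). Anxa2, a membrane-binding annexin gene, had 1578, 531.9 and 934.2 against 2486, 2381 and 2194 (1.35 ± 0.30, adjusted p = 0.143; from 0.0256, without its highest control, Alb-Cre CCl4 replicate 1, to 0.627 over 23 alternatives). Its partner family member S100a11 had 463.8, 279.1 and 275.1 against 1152, 801.3 and 833.5 (1.47 ± 0.30, adjusted p = 0.0927).

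The values of cell division genes moved with replicate 1. None of 30 mitosis genes passed with or without it. With all libraries the median was 0.27 and no member separated the groups; without replicate 1 the median was 1.03 and 29 of 30 were higher in the 2 remaining Alb-R3 libraries than in all 3 controls (13.1% of all tested genes were). Ccnb1, the gene of cyclin B1, had 1299, 229.6 and 1285 in the controls against 268.4, 2000 and 2294 in Alb-R3 (0.56 ± 0.89, and 1.56 without replicate 1, limma adjusted p = 0.833). Alb-R3 replicate 1 and Alb-Cre replicate 2 were both low, and the other 4 libraries high. Alb-R3 replicate 1 was the lowest of the 6 libraries for 22 of the 30 genes and Alb-Cre replicate 2 for the other 8. DNA replication genes went the other way, with a median of -0.39 and a negative difference in 29 of 30. Without Alb-R3 replicate 1 the median was -0.23 and 9 of 30 were positive. With rescaling without mitochondrially encoded genes as well, the median was -0.125 and 12 were positive. Alb-R3 replicate 1 was the lowest library for 26 of the 30 and Alb-Cre replicate 2 the highest for 22. Mcm10, a replication initiation factor gene, had 899.3, 904.7 and 1095 against 486.9, 829.2 and 505.7 (-0.71 ± 0.24, adjusted p = 0.435).

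Most markers of macrophages lay higher in Alb-R3 after CCl4, and no macrophage marker passed. Of 16 Kupffer cell and macrophage markers 15 had a positive difference and 1 a negative one. Without overlap 12 were higher with replicate 1 (6.7% of all tested genes were) and 12 without it (13.1% were). The median was 1.296 (0.754 without it). After oil the median was -0.96, and 9 of the 16 were lower in Alb-R3 without overlap (6.1% of all tested genes were). Cd68, a lysosomal protein gene of macrophages, had 121.5, 149.8 and 108.1 in Alb-Cre against 953.3, 237.3 and 315.8 in Alb-R3 (1.72 ± 0.42, limma adjusted p = 0.211; 1.12 without replicate 1). The complement subunit gene C1qa had 146.8, 137.3 and 204.5 against 1698, 286.4 and 297.3 (log2 difference 1.71, and 0.86 without replicate 1), and the Kupffer cell lectin gene Clec4f 312.1, 212.7 and 413.9 against 1186, 441.7 and 458.4 (1.04, and 0.58 without it). Replicate 1 was the highest of the 6 libraries for 15 of the 16 markers. Summed over the list, levels ran from 3262 to 5440 in Alb-Cre and from 4732 to 18790 in Alb-R3. All 10 monocyte markers had a positive difference (median 1.84, 0.79 without replicate 1), with replicate 1 the highest library for each. Mmp13, a collagenase gene of injured liver, had 0.97, 1.14 and 0.83 against 92.85, 5.13 and 7.21 (3.08 ± 0.86, adjusted p = 0.308; 1.84 without replicate 1). The part of these cells in the higher genes of Alb-R3, immediate-early and annexin genes among them, was not tested. For endothelial markers the median was -0.04 after CCl4, 0.217 without replicate 1 (17 of 18 positive) and -1.11 after oil, where 15 of 18 were lower in Alb-R3 without overlap (6.1% of all tested genes were).

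Interferon response genes had a positive difference in 30 of 30, with a median of 0.63 that was 0.28 without replicate 1, where 27 were positive; replicate 1 was the highest library for 21 of them. The 13 mitochondrially encoded genes were positive in 13 of 13 with a median of 0.87, and 0.005 without replicate 1. Drug-metabolizing and zonated hepatocyte genes were also tied to this library: the median of 54 cytochrome P450 and reductase genes was -0.40 with it and -0.04 without it, that of 30 pericentral genes -0.35 and 0.11, and that of 30 periportal genes -0.33 and 0.01. Cyp2e1, the enzyme that activates CCl4, had 34280, 15990 and 46370 in the controls and 1562, 19460 and 22390 in Alb-R3, with the lowest value in replicate 1 (-1.74 ± 0.78, limma adjusted p = 0.597; -0.49 without it). Of 37 complement and coagulation genes of the liver, none passed, 35 had a negative difference and 9 were lower without overlap (6.14% of all tested genes were), with a median of -0.31 (-0.26 without replicate 1). Alb-Cre CCl4 replicate 2 was the highest library for 29 of the 37, and with rescaling without mitochondrially encoded genes the median was -0.17 and 10 were positive. The plot of list medians sets these shifts side by side.

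**Figure D4:**
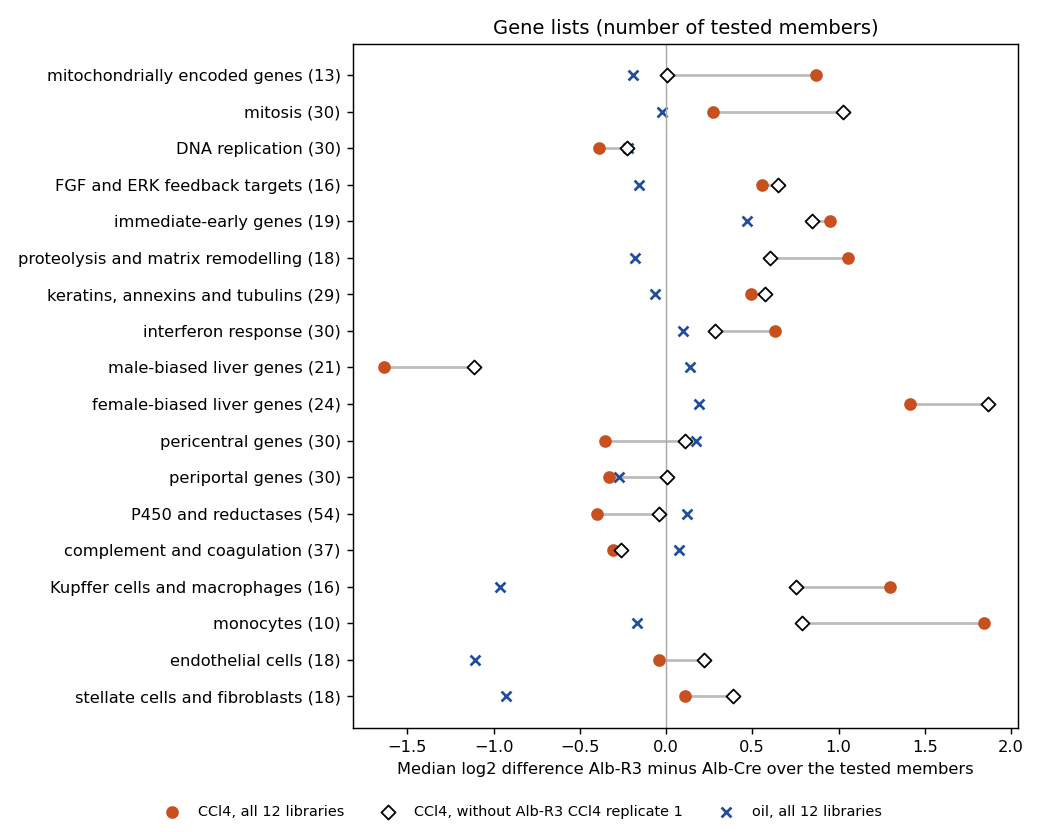
Median log2 difference between Alb-R3 and Alb-Cre over the tested members of 18 gene lists (numbers of members in brackets), after CCl4 with all libraries (filled circles), after CCl4 without Alb-R3 CCl4 replicate 1 (open diamonds) and after oil (crosses). Male-biased genes move from -1.64 with all libraries to -1.12 without replicate 1 and female-biased genes from 1.41 to 1.87, while mitochondrially encoded genes move from 0.87 to 0.005 and mitosis genes from 0.27 to 1.03.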

How the data were processed

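RNA-seq libraries of isolated mouse hepatocytes were analysed from the table the authors deposited, with 3 libraries in each of 4 groups. Per the file headers each library has a normalized count per gene, a depth-scaled signal and not a raw read count, and an FPKM value. Kallisto 0.44.0, edgeR (version not given in the sources used here) and GRCm38.p6 are named in the submitters' processing notes, with no role or order stated. The deposited FPKM values were used for levels per length and as an alternative.

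Of 35709 identifiers, 35574 carried a symbol. From 69.8% to 74.6% of low values were whole multiples of 1 read (tolerance 0.02), too few to recover counts, so no count test was run. Genes with a normalized count of at least 1 in at least 3 of the 6 CCl4 libraries were kept. Values were taken as log2(normalized count + 1), so fold changes of low genes are understated; where "fold" is given for means it is the ratio of mean normalized counts. limma 3.58.1 in R 4.3.3 fitted all 12 libraries with 4 group means (8 residual degrees of freedom) and a mean-variance trend, and p-values were adjusted by the Benjamini-Hochberg method over all 18086 genes at a threshold of 0.05. The script was tested on simulated data. Single library measures were compared by two-sided exact permutation tests.

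The comparison, gene lists and tests were chosen with earlier results of these data known. Genes were named where they passed with the largest differences (predicted and clone-named models left out), where they had the largest or smallest difference in a list, or as FGF receptors. Genes named for passing also had to show no overlap between the CCl4 groups and a minimum mean in the higher group. Not every gene that met the rule is described. Ccnb1, C1qa, Clec4f, Susd4, A1bg, Cyp3a44, Cyp2d9, Fos, Ier3, Anxa2, S100a11, Dusp6, Fam25c, Bcl7c and Fmo1 fell outside this rule and were chosen after their values were seen. Gene positions are from GENCODE M21 on GRCm38, counted from 1. Alternatives were other normalizations, pseudocounts, filters, library weights, a replicate block, FPKM with a pseudocount of 0.1, the 6 CCl4 libraries alone and leaving out each library.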

Additional observations from a re-analysis of the deposited data

How the results depend on the processing

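The number of genes that passed after CCl4, 34 in the reported fit, was 53 without the mean-variance trend, 52 with FPKM and a pseudocount of 0.1 in place of 1, 13 with the 6 CCl4 libraries alone (9 of the 34 among them) and 103 with library weights (all 34 among them). Leaving out 1 library gave 19 to 38. Without Alb-R3 CCl4 replicate 1 the count of 38 was 15 with the CCl4 libraries alone and 61 with FPKM and a pseudocount of 0.1, both tried after the data were seen. After oil, 40 genes became 1092 with library weights, and 26 to 99 on leaving out 1 library, with 26 without Alb-Cre oil replicate 2 or Alb-R3 oil replicate 2 and 99 without Alb-R3 CCl4 replicate 1, whose spread enters the shared error. With quantile normalization the split after oil was 20 higher and 14 lower. The interaction called 8 genes without the trend, 140 with library weights and 0 to 2 on leaving out 1 library. Fgfr3 passed with library weights (-1.08) and ran from -1.08 to -0.84 on leaving out 1 library. The difference in mitochondrial share ran from 0.441 to 12.995 percentage points. The causes of these shifts were not tested.

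Directions reversed only for genes that did not pass with all libraries. On leaving out 1 CCl4 library, Fmo1 ran from -0.10 (without Alb-R3 3; -0.08 without Alb-R3 2) to 0.994 (without Alb-R3 1), Fgfr2 from -0.477 (without Alb-Cre 2) to 0.0642 (without Alb-Cre 3), Fgfr4 from -0.584 (without Alb-R3 1) to 0.018 (without Alb-R3 3; 0.0163 without Alb-Cre 2), Klb to 0.331 (without Alb-R3 1; 0.0149 with library weights) and Ccnb1 from -0.268 (without Alb-Cre 2) to 1.56 (without Alb-R3 1). Deviations from the group mean of same-numbered CCl4 replicates had correlations of -0.153, -0.206 and 0.102 between the genotypes. For differently numbered replicates they ran from -0.228 to 0.304. With 3 libraries per group, and the oil libraries not compared in this way, these values cannot decide whether the numbers pair the samples. With a replicate block 30 genes passed after CCl4 (27 of the 34), 36 after oil and 0 in the interaction, and Fgfr3 had a limma adjusted p of 0.324. Depth, 28000000 reads or more, limits genes near 3 counts, such as Cebpe in Alb-R3, whose fold is set by the pseudocount.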
